A study of Mus musculus with 24 samples.

Results

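The ligands of transforming growth factor beta (TGF-beta) and the latent TGF-beta binding proteins that hold them in the matrix were followed across the jaws of mouse embryos that lack the TGF-beta receptor Alk5 in the neural crest and of their control littermates. The set comprises 7 of the 18193 genes on the array: the ligand genes Tgfb1, Tgfb2 and Tgfb3 and the binding protein genes Ltbp1, Ltbp2, Ltbp3 and Ltbp4. These genes were taken by name, and the brightest probe set of each, by its average on all 24 arrays, stands for it. Of the 7, 6 lay above the filter level of log2 6.07 on at least 2 arrays and were tested among 13837 genes, and Ltbp2 did not.

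TGF-beta is secreted bound to its own propeptide, and that small latent complex is joined in the secretory pathway to a latent TGF-beta binding protein, which ties it to fibrillin and fibronectin in the extracellular matrix. Integrins and proteases release the ligand, which then binds Tgfbr2 and Alk5 (gene symbol Tgfbr1), and the receptors phosphorylate Smad2 and Smad3. In the developing face the pathway acts in the neural crest-derived mesenchyme, and mice without Tgfb3 are known for cleft palate.

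All embryos were taken at embryonic day 12.5, with a strain labelled C57B6. Knockouts were Wnt1-Cre; Alk5 fl/fl embryos, bred from Wnt1-Cre; Alk5 fl/+ and Alk5 fl/fl parents. Control arrays came from littermates whose exact genotype the labels do not give. Wnt1-Cre acts in neural crest cells, so epithelium, endothelium and blood of the knockouts keep Alk5. Each jaw was cut into a distal and a proximal end, and RNA of each of these 4 parts was measured on 4 knockout arrays (numbered 1 to 4) and 2 control arrays. The values are log2 levels, and the number of arrays limits their precision. Nothing in the labels says that samples are from separate embryos, so a p-value here reflects only how far these samples scatter, which may be technical.

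The 24 arrays fall into 3 sets of 8: knockouts 3 and 4, knockouts 1 and 2, and control. Probe sets at the 3′ end of Gapdh and beta-actin exceeded those at the 5′ end, a gap that grows as RNA degrades, by 0.08 ± 0.06 in knockouts 3 and 4, 1.13 ± 0.28 in knockouts 1 and 2 and 0.18 ± 0.04 in control (log2, SD, n = 8 arrays each). The hybridisation controls, RNAs added after extraction, averaged 9.20 ± 0.16, 11.74 ± 0.30 and 10.68 ± 0.35 in the same 3 sets, whose arrays did not overlap in this measure. Set and genotype therefore cannot be told apart, and the knockout sets are given separately. By Xist and Kdm5d, 4 of 8, 4 of 8 and 0 of 8 arrays were female. Tgfbr1 itself averaged 12.44 ± 0.09, 12.34 ± 0.17 and 12.31 ± 0.24. Where its probe set lies relative to the deleted exon is not given in the sources used here, so its level does not check the labels. Mesenchyme markers averaged 11.84 ± 0.14, 11.53 ± 0.33 and 11.78 ± 0.37, with Prrx1, a transcription factor gene of the facial and limb mesenchyme, at 13.02 ± 0.35, 12.42 ± 0.43 and 13.02 ± 0.34.

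RefSeq lists 9 start sites for 6 of the 7 genes on GRCm38.p6; Tgfb3 has none in the table used here. The 250 bases before the start site are shown for Tgfb1 and Ltbp3, the members whose arrays in knockouts 3 and 4 all lay below control. Ltbp1 is shown for its difference in knockouts 1 and 2, and Tgfb2 as the ligand with the smallest difference in knockouts 3 and 4. Capitals mark the GC box GGGCGG, the short Smad-binding letters CAGAC and the TATA box TATAAA, each searched on both strands. Each sequence is written on the gene's strand, 5′ to 3′. Tgfb1 lies at chr7:25686752-25687001 on the plus strand, Tgfb2 at chr1:186705990-186706239 on the minus strand, Ltbp1 (the first of its 2 start sites) at chr17:75005279-75005528 on the plus strand and Ltbp3 at chr19:5740650-5740899 on the plus strand.
Tgfb1: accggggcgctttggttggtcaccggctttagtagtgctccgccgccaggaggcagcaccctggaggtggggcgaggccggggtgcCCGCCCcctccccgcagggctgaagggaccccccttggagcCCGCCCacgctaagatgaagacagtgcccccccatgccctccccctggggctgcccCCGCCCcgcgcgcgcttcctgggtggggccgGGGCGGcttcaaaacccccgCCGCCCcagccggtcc
Tgfb2: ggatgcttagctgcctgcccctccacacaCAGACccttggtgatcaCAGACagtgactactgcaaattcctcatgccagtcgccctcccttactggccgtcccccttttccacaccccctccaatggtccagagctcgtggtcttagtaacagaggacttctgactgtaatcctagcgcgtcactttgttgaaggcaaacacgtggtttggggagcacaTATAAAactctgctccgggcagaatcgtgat
Ltbp1: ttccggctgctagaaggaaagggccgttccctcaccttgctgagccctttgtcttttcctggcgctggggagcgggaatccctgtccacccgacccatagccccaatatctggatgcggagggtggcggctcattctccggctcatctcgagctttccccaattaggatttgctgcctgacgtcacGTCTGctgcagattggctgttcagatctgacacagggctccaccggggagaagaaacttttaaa
Ltbp3: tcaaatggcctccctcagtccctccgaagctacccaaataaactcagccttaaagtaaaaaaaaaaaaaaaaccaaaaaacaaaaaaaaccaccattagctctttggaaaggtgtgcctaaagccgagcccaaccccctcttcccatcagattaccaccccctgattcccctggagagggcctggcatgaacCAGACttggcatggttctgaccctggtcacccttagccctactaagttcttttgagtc

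The Tgfb1 window is 75.2% G and C, holds 5 GC boxes, the site to which the general activator Sp1 binds, and holds neither a TATA box nor CAGAC. The Tgfb2 window is 53.6% G and C and holds no GC box, a TATA box whose first base is at -31 from the start site and 2 CAGAC matches. CAGAC occurs once in the Ltbp1 window (56.8% G and C) and once in the Ltbp3 window (47.2% G and C), and neither holds a GC box. Of 32851 RefSeq windows of the 250 bases before a start site, 32.7% hold a GC box, 42.2% CAGAC and 12.4% a TATA box. The palindromic Smad box GTCTAGAC (0.167% of the windows) and the AP-1 site TGANTCA (6.75%) do not occur in any of the 9 member windows. These matches are letters, not measured binding.

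All 6 tested members had a mean below control in both knockout sets, by as little as -0.01 for Tgfb2 in knockouts 3 and 4, and Ltbp2 was too low to be tested. In knockouts 3 and 4 the members with the largest differences were Tgfb1 and Ltbp3; in knockouts 1 and 2 they were Ltbp1 and Tgfb3. Tgfb2 differed by -0.01 in knockouts 3 and 4 and by -0.50 in knockouts 1 and 2. Both sets are compared with the same control arrays. In bulk tissue, fewer cells of a type and less RNA per cell cannot be told apart. The plot of the members on every array shows these levels.

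**Figure D1:**
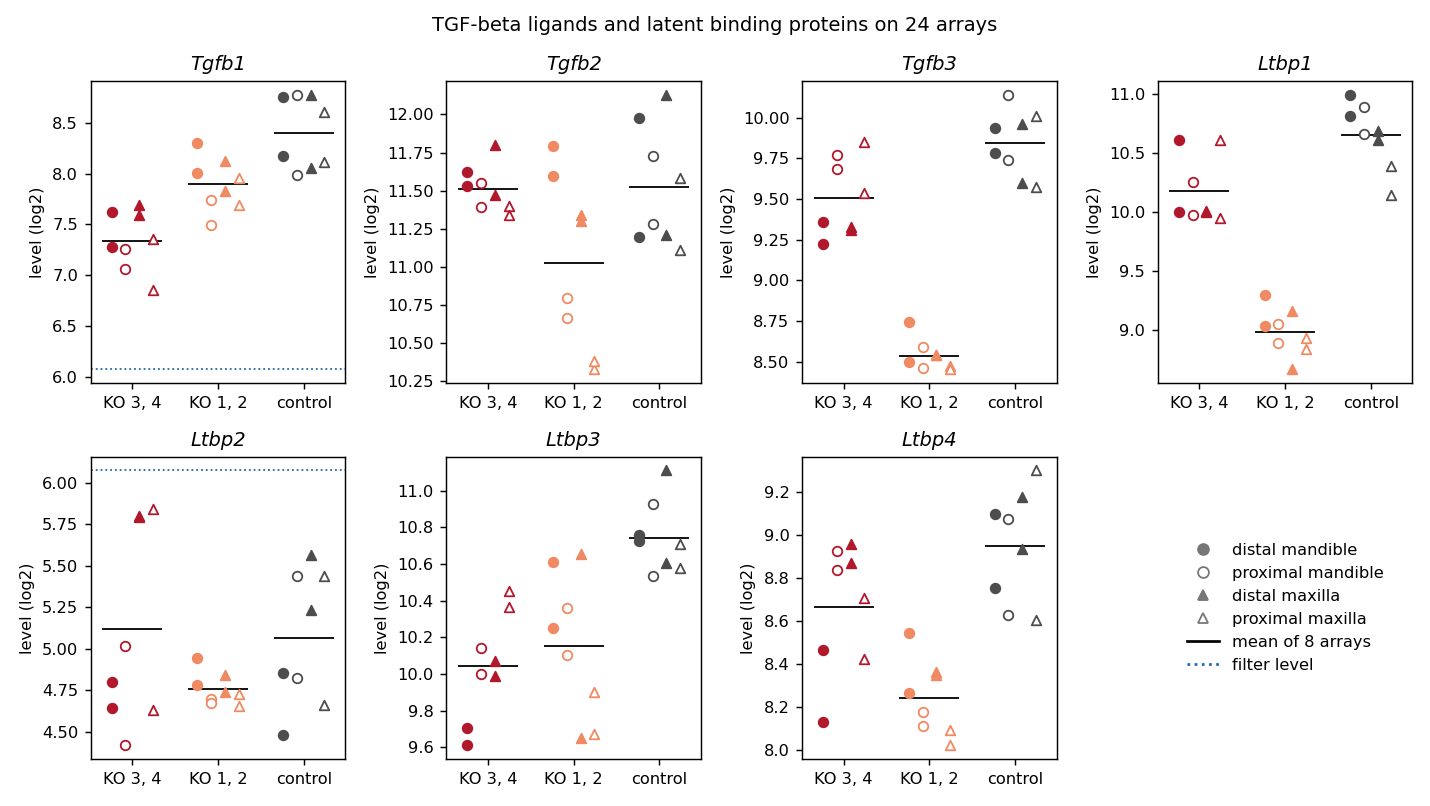
Log2 level of each ligand and latent binding protein gene on every array, with knockouts 3 and 4 (KO 3, 4), knockouts 1 and 2 (KO 1, 2) and control from left to right; circles are mandible, triangles maxilla, filled symbols distal and open symbols proximal ends, the line is the mean of 8 arrays and the dotted line the filter level of 6.07. All 8 arrays of knockouts 3 and 4 lie below control for Tgfb1 and Ltbp3, all 8 arrays of knockouts 1 and 2 lie below control for Tgfb3, Ltbp1 and Ltbp4, and Ltbp2 lies below the filter level on every array.

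Tgfb1 encodes the ligand that platelets, leukocytes and endothelium are known to make. Its level ran from 6.86 to 7.69 (median 7.32) in knockouts 3 and 4, from 7.50 to 8.30 (median 7.89) in knockouts 1 and 2 and from 7.99 to 8.78 (median 8.39) in control. Every array of knockouts 3 and 4 lay below every control array, whereas knockouts 1 and 2 overlapped both other sets. The control arrays themselves were spread: of the 2 in each part, one lay between 7.99 and 8.18 and the other between 8.60 and 8.78, the higher being number 1 in the distal mandible and number 2 in the other 3 parts.

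Tgfb2 encodes the ligand made by much embryonic mesenchyme, and embryos without it have craniofacial and heart defects. Its level ran from 11.34 to 11.80 (median 11.50) in knockouts 3 and 4, from 10.33 to 11.80 (median 11.05) in knockouts 1 and 2 and from 11.11 to 12.13 (median 11.43) in control. The sets overlapped, and the lowest arrays were the proximal ends of knockouts 1 and 2.

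Tgfb3 encodes the ligand needed for fusion of the palatal shelves. Its level ran from 9.22 to 9.85 (median 9.45) in knockouts 3 and 4, from 8.45 to 8.74 (median 8.52) in knockouts 1 and 2 and from 9.57 to 10.14 (median 9.86) in control. Knockouts 1 and 2 lay below all other arrays, and knockouts 3 and 4 overlapped control.

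Among the binding proteins, Ltbp1 encodes a widely made carrier that holds all 3 latent ligands in the matrix. Its level ran from 9.95 to 10.61 (median 10.01) in knockouts 3 and 4, from 8.66 to 9.29 (median 8.98) in knockouts 1 and 2 and from 10.14 to 10.99 (median 10.68) in control. Knockouts 1 and 2 again lay below all other arrays. Ltbp3, which encodes a carrier of all 3 latent ligands that is needed for skull, bone and tooth growth in mice, ran from 9.61 to 10.45 (median 10.04), from 9.65 to 10.65 (median 10.18) and from 10.53 to 11.11 (median 10.72) in the same 3 sets. Every array of knockouts 3 and 4 lay below control, and knockouts 1 and 2 overlapped control at 10.65 and 10.61.

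Ltbp4 encodes a binding protein with a part in elastic fibre assembly that carries latent TGF-beta1. Its level ran from 8.13 to 8.96 (median 8.77) in knockouts 3 and 4, from 8.02 to 8.55 (median 8.22) in knockouts 1 and 2 and from 8.61 to 9.30 (median 9.01) in control. Knockouts 1 and 2 lay below all control arrays, and knockouts 3 and 4 overlapped control. Ltbp2, whose protein binds fibrillin but not latent TGF-beta, lay below the filter level on all 24 arrays, between 4.42 and 5.84, and was not tested. It averaged 5.12 ± 0.60, 4.76 ± 0.10 and 5.06 ± 0.41 in the 3 sets (SD, n = 8 each), which overlapped.

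The first comparison set all knockouts against control over the jaws as a whole. The 4 parts of a number were averaged, which left 4 knockout and 2 control means. All 6 tested members lay below control, but limma called none of them. Over all 13837 genes the share called was 0%, while 965 genes had an unadjusted p below 0.05. The smallest p-values among the members belonged to Ltbp3, at 10.10 ± 0.12 in knockout and 10.74 ± 0.19 in control (SD, n = 4 and 2), and to Tgfb1, at 7.62 ± 0.32 and 8.40 ± 0.25. Their differences were -0.65 ± 0.13 (SE, limma adjusted p = 0.589) for Ltbp3 and -0.79 ± 0.23 (adjusted p = 0.699) for Tgfb1. Ltbp1 (-1.07 ± 0.45), Tgfb3 (-0.82 ± 0.36), Ltbp4 (-0.49 ± 0.18) and Tgfb2 (-0.26 ± 0.19) each had an adjusted p of 0.706.

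In knockouts 3 and 4 against control, no member passed the test either, and limma called 1.56% of all genes. Tgfb1 averaged 7.33 and 7.35 over the parts of knockouts 3 and 4, against 8.23 and 8.58 in the 2 controls. The difference was -1.06 ± 0.13 (SE), 2.09-fold lower, with an adjusted p of 0.0527. Ltbp3 averaged 10.09 and 9.99 in knockouts 3 and 4, against 10.88 and 10.61 in control, a difference of -0.70 ± 0.11 (adjusted p = 0.0668). Both lay just outside the threshold of 0.05. The 8 arrays lay below all 8 control arrays for 2 of 6 members and for 4.7% of all genes tested.

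The other members differed by less in knockouts 3 and 4. Ltbp1 differed by -0.47 ± 0.14 (limma adjusted p = 0.147), Tgfb3 by -0.33 ± 0.10 (0.150) and Ltbp4 by -0.28 ± 0.10 (0.182). Tgfb2 differed by -0.01 ± 0.06 (adjusted p = 0.901), with a 95% confidence interval from -0.17 to 0.14. That interval rests on 2 close control means, 11.54 and 11.51. The control arrays behind them ran from 11.11 to 12.13, with high and low parts in each number. In single parts the SE of Tgfb2 was 0.28. The members' median was -0.33 for the 3 ligands and -0.47 for the 3 binding proteins, beside -0.03 over all genes tested. The call on Tgfb1 changed when 1 number, with its 4 arrays, was left out: without control 1 it differed by -1.24 (adjusted p = 0.0312) and without control 2 by -0.89 (0.0168), while without knockout 3 (-1.06, 0.375) or knockout 4 (-1.07, 0.356) the difference stayed as large and did not pass. Without control 2, Ltbp3 stood at -0.83 and Tgfb3 at -0.47, each against the 1 control mean left. Over all alternatives the adjusted p of Tgfb1 ranged between 0.0162 and 0.805.

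Platelet markers lay low on the arrays of knockouts 3 and 4, as Tgfb1 did, but not on those of knockouts 1 and 2, where Tgfb1 also fell and the platelet markers had a median difference of -0.06 with 1 of 5 higher. The mean level of Pf4, Itga2b, Gp9, Gp1bb and Ppbp ran from 6.94 to 7.72 (median 7.36) in knockouts 3 and 4, from 7.79 to 8.65 (median 8.10) in knockouts 1 and 2 and from 7.87 to 8.57 (median 8.18) in control. Every array of knockouts 3 and 4 thus lay below every control array. All 5 genes lay below control in knockouts 3 and 4 (median -0.88), and limma called Gp1bb, a subunit of the platelet receptor for von Willebrand factor (-0.88 ± 0.07, adjusted p = 0.0397). Pf4, a chemokine stored in platelets, differed by -0.91 ± 0.13 (0.0594) and Ppbp, another platelet chemokine, by -1.76 ± 0.34 (0.0847). The 5 markers averaged between 6.62 and 8.47 in knockouts 3 and 4, so none was absent. Macrophage markers averaged 8.25 ± 0.39, 7.84 ± 0.43 and 7.92 ± 0.33 in the 3 sets and endothelium markers 9.20 ± 0.22, 8.50 ± 0.26 and 9.31 ± 0.11. Other marker lists also differed in knockouts 3 and 4 against control. The mean level of the erythroid markers did not overlap either, at 8.98 to 9.48, against 9.50 to 9.82 in control. All 6 cartilage markers (median -1.22, 1 called), all 5 erythroid markers (median -0.34, 1 called) and all 7 neuron markers (median -0.54, none called) lay below control, and 9 of 10 epithelium markers lay above it (median 0.49, none called). The part of these cells in the members' differences was not tested.

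**Figure D2:**
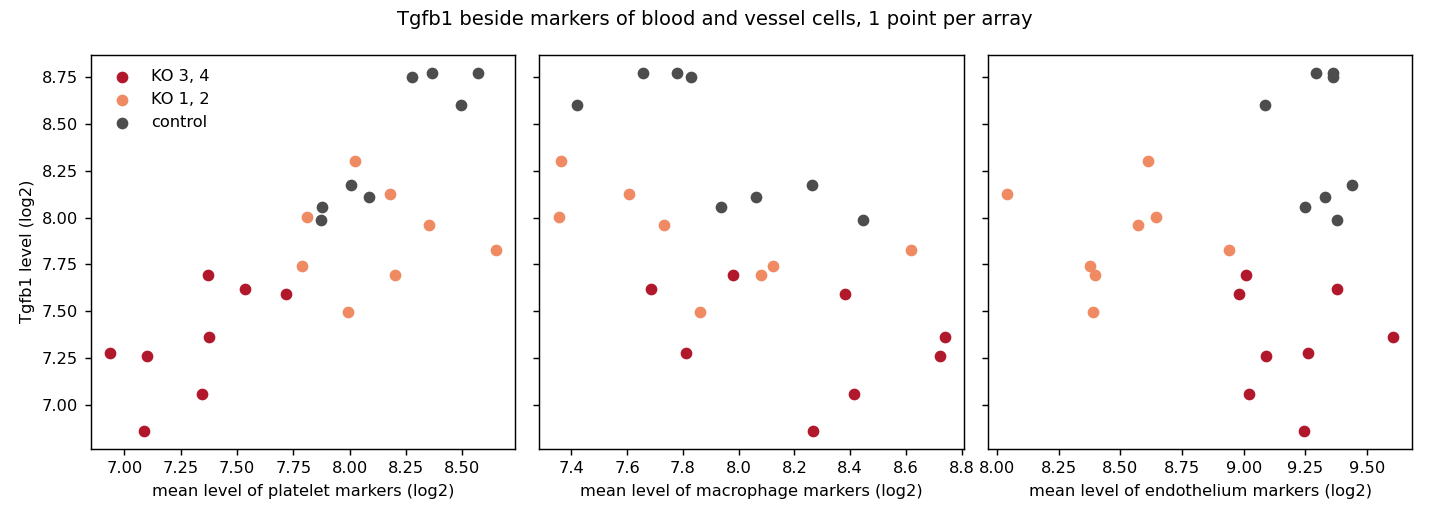
Log2 level of Tgfb1 against the mean log2 level of platelet, macrophage and endothelium markers, 1 point per array, for knockouts 3 and 4 (KO 3, 4), knockouts 1 and 2 (KO 1, 2) and control. The 8 arrays of knockouts 3 and 4 are lowest on both axes of the platelet panel, except that 3 of them reach the Tgfb1 range of knockouts 1 and 2; in the macrophage panel the sets overlap along the marker axis.

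All 6 tested members fell in knockouts 1 and 2 against control, where limma called 52.6% of all genes, 20.9% as higher and 31.7% as lower. Ltbp1 averaged 8.92 and 9.04 in knockouts 1 and 2, against 10.69 and 10.61 in control, and fell by 1.67 ± 0.08 on the log2 scale (3.18-fold lower, limma adjusted p = 0.00150). Tgfb3 averaged 8.56 and 8.52, against 9.97 and 9.71, a difference of -1.31 ± 0.11 (2.47-fold lower, adjusted p = 0.00187). The 8 arrays lay below all control arrays for 3 of 6 members and for 17.9% of all genes tested.

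The other 4 members differed by less in knockouts 1 and 2: Ltbp4 by -0.71 ± 0.09 (limma adjusted p = 0.00462), Ltbp3 by -0.59 ± 0.13 (0.0181), Tgfb1 by -0.51 ± 0.14 (0.0339) and Tgfb2 by -0.50 ± 0.07 (0.00436). The small SE of Tgfb2 again rests on the close control means of 11.54 and 11.51, from arrays between 11.11 and 12.13. The 3 ligands had a median of -0.51 and the 3 binding proteins of -0.71, beside -0.06 over all genes. These arrays also carry the 3′ excess of 1.13, more erythroid marker signal (11.19 ± 0.33, against 9.67 ± 0.12 in control) and less endothelium marker signal, with 7 of 8 endothelium markers lower. Cartilage markers were lower too (5 of 6 called, median -1.66), as were 2 of 3 glia markers (median -0.75), and the part of all these in the result was not tested. With the 3′ excess as a covariate limma called 0 of the 6 members and 0 of all genes, so that fit cannot tell the members from the rest. With sex as a covariate it called Ltbp1 alone. Each fit holds 2 knockout and 2 control means. Both covariates differ between the sets (4 of 8 arrays female in knockouts 1 and 2, 0 of 8 in control). Neither fit can therefore part the covariate from the set, and the call on Ltbp1 does not set it apart. With all probe sets of a gene averaged, Tgfb1 differed by -0.22 (limma adjusted p = 0.0969). That average takes in a Tgfb1 probe set above the filter level on 0 arrays, which differed by 0.08, so the smaller difference follows from the averaging. The call on Tgfb1 was lost without control 2 (-0.33, adjusted p = 0.0589), knockout 1 (-0.57, 0.122) or knockout 2 (-0.45, 0.169), and with the replicate number as a block (0.0566). That on Ltbp3 was lost without knockout 1 (-0.70, 0.0600) or knockout 2 (-0.48, 0.100).

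**Figure D3:**
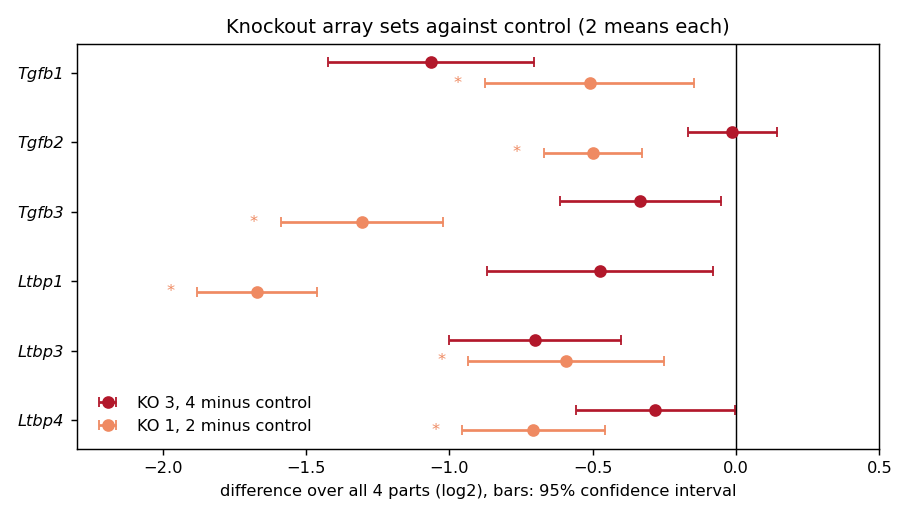
Difference of each member over the 4 parts (log2, knockout minus control), with knockouts 3 and 4 (KO 3, 4) above knockouts 1 and 2 (KO 1, 2), each against the same 2 control means; bars are 95% confidence intervals and an asterisk marks a limma adjusted p under 0.05. All 6 members carry an asterisk in knockouts 1 and 2, between -1.67 for Ltbp1 and -0.50 for Tgfb2, and none does in knockouts 3 and 4, where Tgfb1 lies at -1.06 and Tgfb2 at -0.01.

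The knockout sets were also compared with each other, since both carry the same genotype. In knockouts 1 and 2 against knockouts 3 and 4, limma called 64.9% of all genes (28.7% higher and 36.2% lower) and 5 of 6 members. Tgfb3 (-0.97 ± 0.06, adjusted p = 2.00e-04), Ltbp1 (-1.20 ± 0.14, 8.58e-04), Tgfb2 (-0.49 ± 0.07, 0.00167) and Ltbp4 (-0.42 ± 0.08, 0.00504) were lower in knockouts 1 and 2. Tgfb1 was higher there by 0.55 ± 0.07 (adjusted p = 0.00145), as were all 5 platelet markers (median 0.66) and all 5 erythroid markers (median 1.88). Of 11 macrophage markers 7 were lower and 0 higher (median -0.38). Of 8 endothelium markers 6 were lower and 1 higher (median -0.68). Ltbp3 differed by 0.11 ± 0.10 (adjusted p = 0.354), with a 95% confidence interval from -0.13 to 0.35. Its other probe sets did not go 1 way. A second bright one was lower (-0.31 ± 0.08, limma adjusted p = 0.0172). Of 2 dim ones, 1 was higher (0.77 ± 0.25, 0.0371) and 1 did not pass (0.18 ± 0.15, 0.316). The differences of Tgfb1 and of the other called members thus point in opposite directions between knockout arrays alone.

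The test was then run in each of the 4 parts, with 2 arrays per set. Among the members in knockouts 3 and 4, Ltbp3 passed in the distal mandible, where 1.49% of all genes did (1.21% as lower), and none passed in the proximal mandible (0.795%), the distal maxilla (1.06%) or the proximal maxilla (1.29%). It had levels of 9.70 and 9.61 in knockouts 3 and 4, against 10.76 and 10.72 in control, a difference of -1.08 ± 0.25 (limma adjusted p = 0.0470). The call was lost without control 1 (adjusted p = 0.119), control 2 (0.205), knockout 3 (0.446) or knockout 4 (0.593), with differences between -1.04 and -1.13. In the other parts Ltbp3 differed by -0.66 ± 0.25 (proximal mandible), -0.83 ± 0.25 (distal maxilla) and -0.23 ± 0.25 (proximal maxilla).

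Tgfb1 lay below control in every part of knockouts 3 and 4, by -1.01 ± 0.30 in the distal mandible (limma adjusted p = 0.132), -1.22 ± 0.30 in the proximal mandible (0.0700), -0.77 ± 0.30 in the distal maxilla (0.305) and -1.25 ± 0.30 in the proximal maxilla (0.0578). In the proximal maxilla its levels were 6.86 and 7.36 in knockouts 3 and 4, against 8.11 and 8.60 in control. Without control 1 it passed in the proximal mandible (-1.62, 0.00637) and the proximal maxilla (-1.49, 0.0190), and without control 2 in the distal mandible (-1.30, 0.0473). Tgfb2 lay between -0.03 and 0.02 in the 4 parts. Ltbp1 lay between -0.66 and -0.60 in 3 parts and at 0.01 ± 0.23 in the proximal maxilla.

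Tgfb3 in knockouts 3 and 4 differed by -0.57 ± 0.17 in the distal mandible (limma adjusted p = 0.137) and -0.46 ± 0.17 in the distal maxilla (0.270), and by -0.21 ± 0.17 and -0.10 ± 0.17 in the proximal mandible and proximal maxilla. None of these passed. Without control 2, the distal maxilla did (-0.64, adjusted p = 0.0303). Ltbp4 differed by -0.63 ± 0.21 in the distal mandible (adjusted p = 0.196), a call gained without control 1 (-0.80, 0.0382), and by 0.03, -0.14 and -0.39 in the proximal mandible, distal maxilla and proximal maxilla.

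Tgfb3 and Ltbp1 fell in all 4 parts of knockouts 1 and 2. Tgfb3 differed by -1.24 ± 0.17 in the distal mandible, -1.42 ± 0.17 in the proximal mandible, -1.24 ± 0.17 in the distal maxilla and -1.33 ± 0.17 in the proximal maxilla, with limma adjusted p-values between 6.33e-05 and 3.57e-04. Ltbp1 differed by -1.74 ± 0.23, -1.81 ± 0.23, -1.74 ± 0.23 and -1.39 ± 0.23 in the same order (5.13e-05 to 9.27e-04). Of 6 members, 2 passed in the distal mandible (48.6% of all genes, 28.3% as lower), 4 in the proximal mandible (39.1% and 23.8%), 4 in the distal maxilla (34.9% and 21.4%) and 5 in the proximal maxilla (28.5% and 16.1%), all lower. Leaving out any 1 number ended none of these calls on Tgfb3 and Ltbp1. With the 3′ excess as a covariate Ltbp1 passed in no part (adjusted p between 0.0720 and 0.271), and Tgfb3 was lost in the distal mandible (0.216) and distal maxilla (0.179). With all probe sets of a gene averaged, Ltbp1 was lost in the proximal maxilla (-0.65, 0.0533). With both knockout sets pooled neither gene passed in any part. That fit called between 0 and 2 of all genes in each part, so it cannot tell these 2 genes from the rest.

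Tgfb2 fell in the proximal ends of knockouts 1 and 2: by 0.77 ± 0.28 on the log2 scale in the proximal mandible (levels 10.66 and 10.80, against 11.73 and 11.28 in control, limma adjusted p = 0.0378) and by 0.99 ± 0.28 in the proximal maxilla (10.33 and 10.38, against 11.11 and 11.59, adjusted p = 0.0159). In the distal mandible it differed by 0.11 ± 0.28 (adjusted p = 0.772) and in the distal maxilla by -0.35 ± 0.28 (0.352). Without knockout 1, Tgfb2 differed by -0.71 (0.208) in the proximal mandible and -0.96 (0.0999) in the proximal maxilla, and without knockout 2 by -0.84 (0.132) and -1.02 (0.0931), so both calls were lost with differences about as large. The call was also lost in the proximal mandible with the replicate number as a block (0.0562). Without control 2, Tgfb2 passed as higher in the distal mandible (0.50, 0.0218) and as lower in the distal maxilla (-0.81, 0.00828). The test of the difference between the ends, knockout minus control, did not pass (0.37 ± 0.24, adjusted p = 0.971).

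Ltbp4 passed in the proximal mandible (-0.71 ± 0.21, limma adjusted p = 0.0151), the distal maxilla (-0.70 ± 0.21, 0.0185) and the proximal maxilla (-0.89 ± 0.21, 0.00646) of knockouts 1 and 2, and stood at -0.52 ± 0.21 in the distal mandible (0.0512). Its call was lost without control 1 (-0.48, 0.0576), knockout 1 (-0.74, 0.0770) or knockout 2 (-0.68, 0.101) in the proximal mandible, without knockout 1 (-0.70, 0.156) or 2 (-0.71, 0.0730) in the distal maxilla and without knockout 2 (-0.86, 0.0594) in the proximal maxilla. Without control 1 it was gained in the distal mandible (-0.69, 0.00917).

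Ltbp3 passed in the distal maxilla (-0.71 ± 0.25, limma adjusted p = 0.0415) and the proximal maxilla (-0.86 ± 0.25, 0.0207) of knockouts 1 and 2. These calls were lost without control 1 (-0.45, 0.296, and -0.79, 0.110) or control 2 (-0.96, 0.0507, and -0.92, 0.0503), and in the distal maxilla without knockout 2 (-0.21, 0.441). In the proximal mandible Ltbp3 was at -0.50 ± 0.25 and was gained without knockout 2 (-0.62, 0.0346). Tgfb1 passed in no part, at -0.31, -0.76, -0.44 and -0.53 in the distal mandible, proximal mandible, distal maxilla and proximal maxilla (each ± 0.30), and was gained without control 1 in the proximal mandible (-1.16, 0.00734) and distal maxilla (-0.80, 0.0342).

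**Figure D4:**
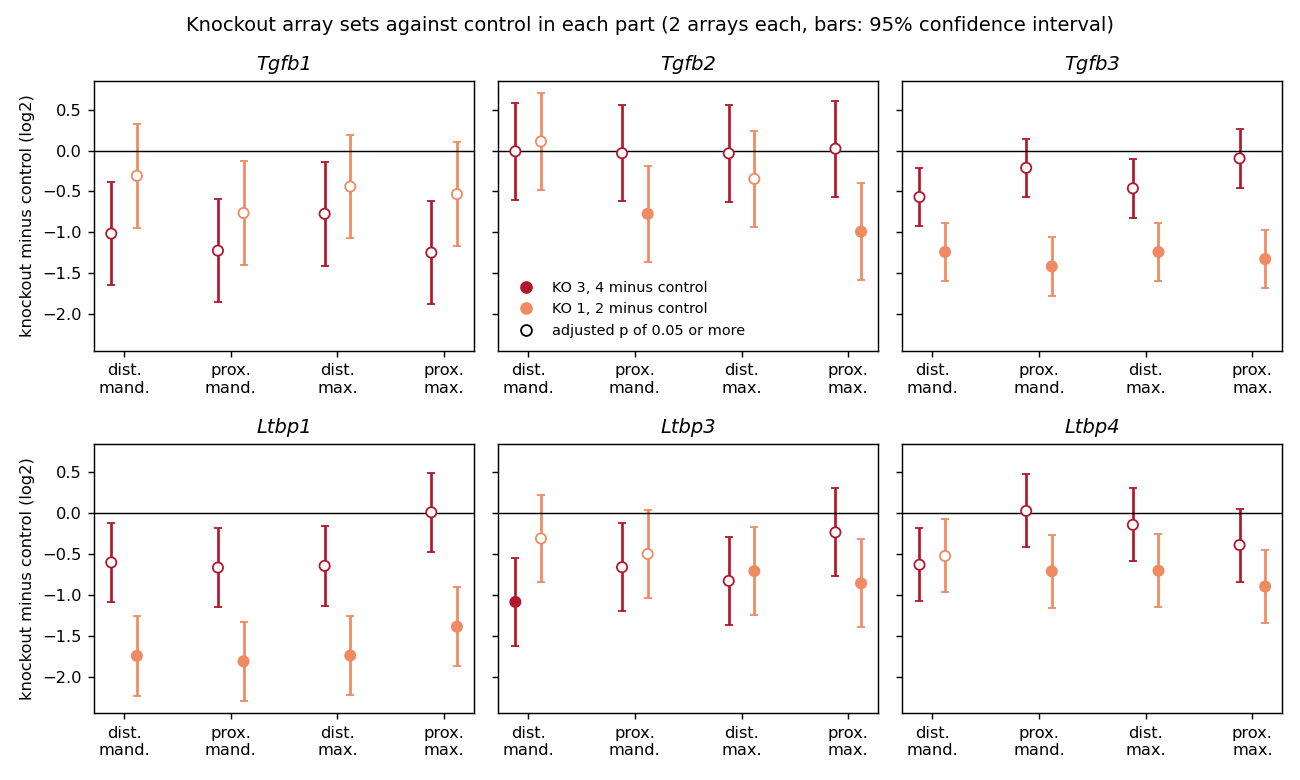
Difference of each member in each part (log2, knockout minus control, 2 arrays per set), for knockouts 3 and 4 (KO 3, 4) left of knockouts 1 and 2 (KO 1, 2); bars are 95% confidence intervals and filled points have a limma adjusted p under 0.05. Tgfb3 and Ltbp1 are filled in all 4 parts in knockouts 1 and 2, and Ltbp3 in the distal mandible (-1.08) is the filled point of knockouts 3 and 4.

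The comparison of distal with proximal ends asked whether the ligands and carriers are graded along the jaws. No member passed in the knockout mandible (limma called 1.09% of all genes), the knockout maxilla (0.065%), the control mandible (0%) or the control maxilla (0%). Tgfb2 had the smallest p-values among the members, at 0.54 ± 0.19 in the knockout mandible (adjusted p = 0.297) and 0.62 ± 0.19 in the knockout maxilla (0.484), beside 0.08 ± 0.28 and 0.32 ± 0.28 in the control mandible and control maxilla. The distal arrays of Tgfb2 in knockouts 1 and 2 lay between 11.30 and 11.80 and the proximal arrays between 10.33 and 10.80, without overlap. The difference was 0.97 in both jaws of knockouts 1 and 2 (adjusted p = 0.138 and 0.475 in mandible and maxilla). It was 0.10 and 0.27 in knockouts 3 and 4. In the control maxilla the 2 numbers went opposite ways. Control 1 had Tgfb2 at 12.13 in its distal and 11.11 in its proximal array, a difference of 1.02. Control 2 stood at 11.21 distally and 11.59 proximally.

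The 4 distal arrays of knockouts 1 and 2 lay above the 4 proximal arrays for Tgfb2 and Ltbp4 (8.26 to 8.55, against 8.02 to 8.18), and for 1.89% of all genes tested. The 4 distal arrays of knockouts 3 and 4 lay below the 4 proximal ones for Tgfb3, at 9.22 to 9.36, against 9.54 to 9.85, as they did for 3.69% of all genes. The differences of Tgfb3 there were -0.44 in the mandible and -0.38 in the maxilla (limma adjusted p = 0.779 in the mandible), beside 0.10 and 0.08 in knockouts 1 and 2. Ltbp3 in knockouts 3 and 4 averaged 9.85 in distal and 10.24 in proximal arrays, which overlapped. Tgfb1 averaged 7.55 and 7.13 in the distal and proximal arrays of knockouts 3 and 4, 8.07 and 7.72 in those of knockouts 1 and 2 and 8.44 and 8.37 in those of control, and the ends overlapped in each set. The test of the difference between ends, knockout minus control, called no member and 0.00723% of all genes: Tgfb2 stood at 0.37 ± 0.24 and Tgfb1 at 0.31 ± 0.26 (adjusted p = 0.971 each).

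**Figure D5:**
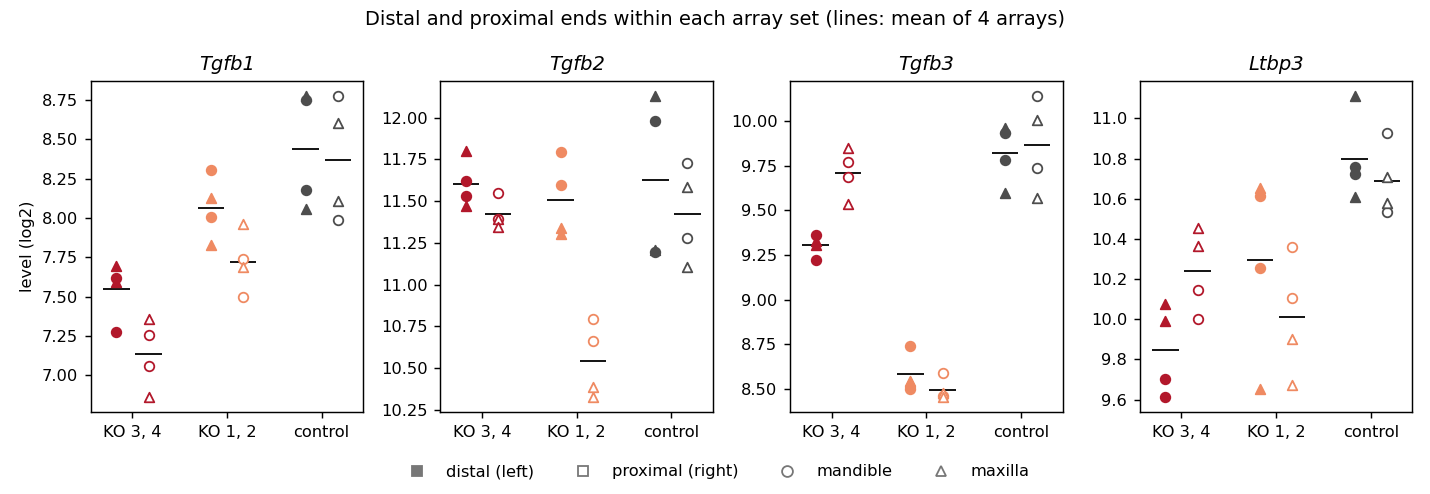
Log2 level of Tgfb1, Tgfb2, Tgfb3 and Ltbp3 at the distal end (filled, left) and the proximal end (open, right) in knockouts 3 and 4 (KO 3, 4), knockouts 1 and 2 (KO 1, 2) and control, with mandible as circles, maxilla as triangles and the mean of 4 arrays as a line. Distal Tgfb2 arrays lie above proximal ones in knockouts 1 and 2 (11.51 and 10.54 on average), and distal Tgfb3 arrays lie below proximal ones in knockouts 3 and 4 (9.31 and 9.71).

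Between the jaws, no member passed in knockout, where limma called 7.71% of all genes, or in control, where it called 0.687%. The members' differences, mandible minus maxilla, lay between -0.04 and 0.20 in knockout and between -0.12 and 0.38 in control. The knockout sets differed in sign for Ltbp3, at -0.36 in knockouts 3 and 4 (adjusted p = 0.576) and 0.36 in knockouts 1 and 2 (0.229), which average to near 0. Tgfb2 stood at 0.02 (0.999) and 0.38 (0.257) in the same sets, and none of these passed. The largest difference in control was that of Ltbp1, with mandible arrays from 10.66 to 10.99 and maxilla arrays from 10.14 to 10.69, a difference of 0.38 ± 0.16 (adjusted p = 0.369). The test of the difference between jaws, knockout minus control, called 0 members and 0% of all genes.

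Other probe sets of the same genes did not all give the same size. Tgfb2 has 3 further probe sets, each above the filter level on all 24 arrays, and in knockouts 1 and 2 against control all 3 fell (limma adjusted p between 0.00149 and 0.00461), with differences of -1.03 ± 0.14 and -1.66 ± 0.08 on the first 2, beside -0.50 for the brightest one. In knockouts 3 and 4 they lay at -0.17, -0.18 and -0.12, and none passed. For Ltbp3, a second bright probe set differed by -0.73 ± 0.08 in knockouts 3 and 4 (adjusted p = 0.0484) and -1.04 ± 0.10 in knockouts 1 and 2 (0.00233), and 2 dim ones by -0.29 and -0.52 and by -0.11 and 0.25. For Ltbp1, a second probe set above the filter level on 14 arrays differed by -0.45 and -1.19, and one above it on 5 arrays by -0.33 and 0.12. The second Tgfb1 probe set was not above the filter level on any array.

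The genes whose levels followed each member most closely were taken over the 24 arrays after the mean of each array set was subtracted. Pearson's r describes these arrays only, since parts of 1 number may share embryos. Tgfb1 was followed by Niban2 (r = 0.85), Bcat2 (0.85) and Ptger2 (0.84), Tgfb2 by Stk38 (0.81), Dock9 (0.78) and Cracdl (0.77), and Tgfb3 by Tgfbi, a matrix protein gene named for its induction by TGF-beta (0.86), Plcxd3 (0.84) and Fyn (0.84). Ltbp1 was followed by Birc6 (0.80), Ltbp3 by the secreted Fstl1 (0.86) and the protease gene Bace1 (0.86), and Ltbp4 by Ccdc136 (0.77). Among the members themselves r ran from -0.54 (Tgfb1 and Tgfb3) to 0.56 (Tgfb3 and Ltbp3).

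Genes that store and process the latent complex were next. In knockouts 3 and 4 against control all 11 tested genes of this list lay below control (median -0.34, beside -0.03 over all genes), and none passed. The smallest p-values were those of Mmp14, a membrane protease (-0.47 ± 0.06, limma adjusted p = 0.0505), and Emilin1, an elastic fibre protein that restrains processing of the TGF-beta precursor (-0.43 ± 0.05, 0.0532). Mmp14 passed in the distal mandible (-0.52 ± 0.11, 0.0284) and the proximal mandible (-0.56 ± 0.11, 0.0278), as did Furin, the protease that cleaves the TGF-beta precursor (-0.43 ± 0.10, 0.0410, and -0.51 ± 0.10, 0.0227). Of the same 11 genes, 7 fell and 1 rose in knockouts 1 and 2, with a median of -0.38. The smallest p-values were those of Eln, elastin (-2.56 ± 0.11, adjusted p = 0.00148), Fbln5, which helps assemble elastic fibres (-2.11 ± 0.10, 0.00150), Emilin1 (-0.81 ± 0.07, 0.00185) and Mmp14 (-0.73 ± 0.07, 0.00256). The gene that rose was Bmp1, a protease that cleaves Ltbp1 (0.40 ± 0.09, 0.0182), named after its value was seen.

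Of 7 tested activators and carriers, none passed in knockouts 3 and 4, with 2 below control and a median of 0.12. The smallest p-values were those of the integrin subunit Itgb1 (0.22 ± 0.05, limma adjusted p = 0.108) and of Nrros, the macrophage and microglia carrier of latent TGF-beta1 (0.13 ± 0.05, 0.213). Of the 7, 3 fell and 2 rose in knockouts 1 and 2. Those that fell were Thbs1, thrombospondin, an activator of latent TGF-beta (-2.50 ± 0.16, adjusted p = 0.00155), Itgb1 (-0.98 ± 0.12, 0.00374) and Nrros (-0.53 ± 0.07, 0.00419). Itgb3 rose by 0.59 ± 0.12 (0.0128), and Itgav, named after its value was seen, by 0.33 ± 0.08 (0.0258).

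Of 9 receptors and Smads, none passed in knockouts 3 and 4 (6 below control, median -0.06). Tgfbr3, the coreceptor that presents Tgfb2, stood at 0.32 ± 0.08 (limma adjusted p = 0.107) and the endothelial coreceptor Eng at -0.22 ± 0.06 (0.127). Of the 9, 4 fell and 0 rose in knockouts 1 and 2: Tgfbr2, the type II receptor (-1.39 ± 0.09, 0.00161), the signal transducer Smad2 (-0.95 ± 0.10, 0.00267), Tgfbr3 (-0.85 ± 0.10, 0.00336) and the feedback inhibitor Smad7 (-0.88 ± 0.14, 0.00717). Smad7 was also lower in mandible than in maxilla in knockout (-0.67 ± 0.14, 0.00800).

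Of 5 target genes, none passed in knockouts 3 and 4 (4 below control, median -0.37). Pmepa1, an inhibitor induced by TGF-beta, stood at -0.43 ± 0.10 (limma adjusted p = 0.104) and Ccn2, a matricellular target, at -0.53 ± 0.15 (0.130). Of the 5, 3 fell in knockouts 1 and 2: Tagln, a smooth muscle actin-binding protein (-1.20 ± 0.09, adjusted p = 0.00168), Ccn2 (-1.44 ± 0.14, 0.00252) and Skil, a repressor of Smads (-0.48 ± 0.07, 0.00539). Between the ends of the knockout mandible, Ccn2 was lower distally (-1.13 ± 0.23, 0.0310) and the endothelial type I receptor Acvrl1 higher (0.49 ± 0.09, 0.0159). The values in knockouts 1 and 2 stand beside the 52.6% of all genes called there.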

How the data were processed

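Per the labels, 5 µg of total RNA from each of 24 samples, extracted with RNeasy, was put on an Affymetrix Mouse430_2 array. The authors deposited a log2 level for every probe set. Per the submitters' processing notes these are RMA values. Its version, and whether the arrays were normalized in 1 run, are not given in the sources used here. Probe sets with 1 gene symbol (34945 of 45101) were kept, and the brightest by its average on 24 arrays stood for each of 18193 genes. A gene was tested (13837 were) if at least 2 arrays exceeded log2 6.07, which is the 40th percentile of the values with control features left out.

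Tests were 2-sided and used lmFit and eBayes (no trend) of limma 3.58.1 under R 4.3.3. P-values were adjusted by Benjamini-Hochberg across the 13837 genes, with a threshold of 0.05. For tests over the whole jaws, the values of a number in its 4 parts were first averaged. Parts, jaws, ends and interactions were contrasts of 1 fit of 24 arrays with 12 group means. No arrays were duplicates (highest correlation 0.9969). The fits were run on simulated data with known changes. Those arrays had independent noise, no shift of a whole array set and nothing shared between parts of a number. The simulation therefore does not cover these features of the real arrays. The 7 members and the pathway and marker lists were chosen with earlier results of these data known. The text gives part of the pathway genes that the rule lists (up to 4 of a list with the smallest p past the threshold, or 2 where none passed). The alternatives were other filters, scaling, probe set rules, covariates, a replicate block and leaving out each number. Promoter sequences are from RefSeq (GRCm38.p6).

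Whether same-numbered samples deviate together was checked by the correlation of their deviations from the group means between parts. It was positive in all 6 pairs of parts of knockouts 3 and 4 (0.07 to 0.35), mixed in knockouts 1 and 2 (-0.31 to 0.22), negative in the 3 control pairs with the distal mandible (-0.68 to -0.37) and positive in the other 3 control pairs (0.26 to 0.58). Since not every pair exceeded 0.1, the number was not used as a block in the tests. The whole-jaw means still group the parts by number. The contrasts of parts, ends and jaws treat the 24 arrays as independent, although parts of 1 number may share embryos.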

Additional observations from a re-analysis of the deposited data

Results flagged for a closer look

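In the proximal maxilla, Ltbp2 on knockout array 4 stood at 5.84 (log2), far from the other 3 knockout arrays of that part at 4.63, 4.65 and 4.73. It lay below the filter level of 6.07 there, as on all 24 arrays. That group holds both knockout sets: within knockouts 3 and 4 the distal maxilla arrays stood at 5.80 and 5.79, close to 5.84, and 4.63 is the low array 3 of the proximal maxilla. Of 28 groups of 4 knockout arrays looked at (7 genes in 4 parts), this was the 1 found. Chance alone flags about 1 group in 20, so 1 in 28 is no more than chance gives.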

How the results depend on the processing

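Of the 6 tested members, the count called in knockout against control over all parts was 0. With the replicate block it was 5 (Tgfb2, Tgfb3, Ltbp1, Ltbp3 and Ltbp4), in a fit that rests on numbers 1 and 2 alone. That fit called 6393 of all genes tested, against 0 as reported, so the 5 members stand among many other calls. With the 3′ excess as a covariate the count of members was 2 (Tgfb1 and Ltbp3). In knockouts 3 and 4 over all parts the count of 0 became 1 with each array centred on its median (Tgfb1) and 2 with a trend in eBayes or 1 fit of all 6 means (Tgfb1 and Ltbp3). In knockouts 1 and 2 over all parts the count of 6 became 0 with the 3′ excess, where 0 of all genes were called, and 1 with sex as a covariate (Ltbp1). In knockouts 3 and 4 the 1 call in the distal mandible became 0 with no filter, with the mean of all probe sets per gene and with the knockout sets pooled. In knockouts 1 and 2 the pooled sets gave 0 members in each part. The pooled fit called between 0 and 2 of all genes in each part. The 3′ excess gave 0 members in the distal mandible, 2 in the proximal mandible, 1 in the distal maxilla and 2 in the proximal maxilla, where the mean of probe sets gave 3. Leaving out 1 number gave 0 to 3 members in knockouts 3 and 4 over all parts and 0 to 1 in each of their parts; in knockouts 1 and 2 it gave 4 to 6 over all parts, 2 to 3 in the distal mandible, 2 to 4 in the proximal mandible, 2 to 4 in the distal maxilla and 3 to 4 in the proximal maxilla; between the ends of the control maxilla it gave 0 to 1 (Tgfb2). In these leave-out fits the set that lost a number rests on 1 array in each part, and over all parts on 1 mean. Leaving out control 2 gave knockouts 3 and 4 over all parts the most genes called of any alternative. Members gained there thus stand among many other calls. Causes were not tested. The direction in knockouts 1 and 2 was opposite on some other probe sets. For Ltbp1, the probe set above the filter level on 5 arrays gave 0.12 against control and 0.45 against knockouts 3 and 4. For Ltbp3, a dim probe set gave 0.25 against control. A different one, the second bright Ltbp3 probe set, gave -0.31 against knockouts 3 and 4. These probe sets were added after the data were seen. So were crossed numbers, exchanged in the control distal mandible and in the proximal maxilla of knockouts 1 and 2. Crossing gave 0 members in knockouts 3 and 4 and 4 in knockouts 1 and 2. In knockouts 1 and 2 the replicate block ended the calls on Tgfb1 over all parts (adjusted p = 0.0566) and on Tgfb2 in the proximal mandible (0.0562), and it changed no other member call against control beside those above; it could not be fitted for knockouts 3 and 4 against control or between the knockout sets, which share no numbers. Over all alternatives the count of genes called ranged between 0 and 1378 in knockouts 3 and 4 and between 0 and 8029 in knockouts 1 and 2 (216 and 7279 as reported). Ltbp2, below the filter level on every array, could not be compared.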
